A study of Mus musculus with 10 samples.

Results

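The acid hydrolases that break down proteins, sugars, sulfated chains and lipids inside lysosomes, the small proteins that present lipids to them and the main proteins of the lysosomal membrane were compared between whole kidneys of Rragc S74N/+ and Rragc +/+ mice. The set was written as 43 gene symbols, and all 43 were among the 13299 genes of the normalized count table and passed the filter on low values. It holds 11 proteases, 11 glycosidases, 5 sulfatases, 5 lipid hydrolases, 3 lipid-binding activators and carriers and 8 membrane proteins. The symbols were chosen by what the proteins do, with earlier results of these data known. The study examined how a mild rise in nutrient signaling affects ageing. It did so in C57BL/6 mice in which 1 of the 2 Rragc alleles carried the S74N change, knocked in to exon 1 with some silent changes and thus present in every cell of the body. Rragc encodes RagC, a small GTPase that reports nutrient sufficiency to the kinase complex mTORC1 at the lysosome, and S74N is an activating form. The 5 Rragc S74N/+ mice (KI/+ in the labels) and 5 Rragc +/+ controls were aged 1.5 years, the labels name no other allele or treatment, and each sample was whole kidney, a mixture of tubule, vascular, stromal and immune cells. Because the change was present in every tissue from conception, effects within kidney cells and effects from elsewhere in the body cannot be told apart in this design. In whole tissue, fewer cells of a type and less RNA per cell cannot be told apart either.

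Lysosomal hydrolases are made in the endoplasmic reticulum, given a mannose phosphate tag in the Golgi and carried to an acidic compartment whose pH is held low by the V-ATPase. In kidney, lysosomes are abundant in the proximal tubule, where they digest protein taken up from the filtrate. Many lysosomal genes share a short E-box in their promoters that is bound by the MiT-TFE factors (TFEB, TFE3, MITF and TFEC), and mTORC1 at the lysosome phosphorylates these factors and holds them in the cytosol, a step that depends on RagC and RagD.

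Each kidney was sequenced once by a 3′ method, so a count does not scale with transcript length. Between 4488493 and 5797251 reads stood behind the normalized counts of a kidney. RNA quality scores were 6.2 to 7 per the labels, and transcripts of the mitochondrial genome took 35.8% to 38.0% of normalized counts in Rragc +/+ and 33.8% to 36.8% in Rragc S74N/+ kidneys. Proximal tubule markers were strongly detected, with summed levels between 39374 and 50086 normalized counts in Rragc +/+ and between 38270.1 and 50534 in Rragc S74N/+ kidneys, and 2 of 12 fell. All 6 distal convoluted tubule markers fell (summed level 6665 to 7747 against 2690.4 to 3839 in Rragc S74N/+), as did 3 of 6 thick ascending limb markers. In the other direction, 3 of 6 fibroblast, 2 of 6 podocyte and 1 of 3 neutrophil markers rose (10 neutrophil markers were listed, 3 measured). Rose and fell here mean a limma adjusted p under 0.05, as in 3.45% and 2.58% of all tested genes. Of 6 T cell markers 0 passed in limma (5 with an unadjusted p under 0.05, beside 3360 of 13236 tested genes, 1 called by edgeR and 2 by DESeq2). Neither did any of 7 B and plasma cell or 6 endothelial markers, whose sums overlapped (DESeq2 called 1 in each list). Summed levels in Rragc +/+ against Rragc S74N/+ kidneys were 805 to 1403 against 1313 to 2188 for fibroblast, 722 to 841 against 887 to 1119 for podocyte, 21.1 to 38.0 against 42.99 to 83.0 for neutrophil and 39.8 to 61.5 against 68.2 to 125 for T cell markers, and only the fibroblast sums of these overlapped. Of 7 collecting duct markers 1 rose and 1 fell. The part of these cell mixture differences in the lysosomal values was not tested. Rragc itself did not pass the test (log2 fold change -0.22 ± 0.20 (SE), limma adjusted p = 0.508), and 3′ counts do not read the S74N base, so its level does not check the genotype. Rragc S74N/+ replicate 1 stood apart from the other 4 Rragc S74N/+ kidneys in several of the lysosomal genes, and values without it are given beside the results that it moves.

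Log2 fold changes of the lysosomal genes were mostly negative in Rragc S74N/+ kidneys. A gene was called when its limma p, adjusted over all 13236 tested genes, was under 0.05. Of the 43 genes, 10 were called lower (23.3%) and 1 was called higher (2.33%), where the share over all tested genes was 2.58% lower and 3.45% higher. The 10 that fell were the proteases Tpp1, Dpp7, Lgmn, Ctsz and Ctsb, the glycosidases Hexa, Neu1 and Man2b1, the sulfatase Arsb and the saposin precursor Psap. The 1 that rose was the protease Ctss. The log2 fold change was negative in 35 of 43 and positive in 8, where it was negative in 6785 and positive in 6451 of the 13236 tested genes. The median was -0.23 beside -0.01 over all tested genes. An unadjusted limma p under 0.05 was found in 19 of 43, beside 3360 of the 13236 tested genes.

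**Figure D1:**
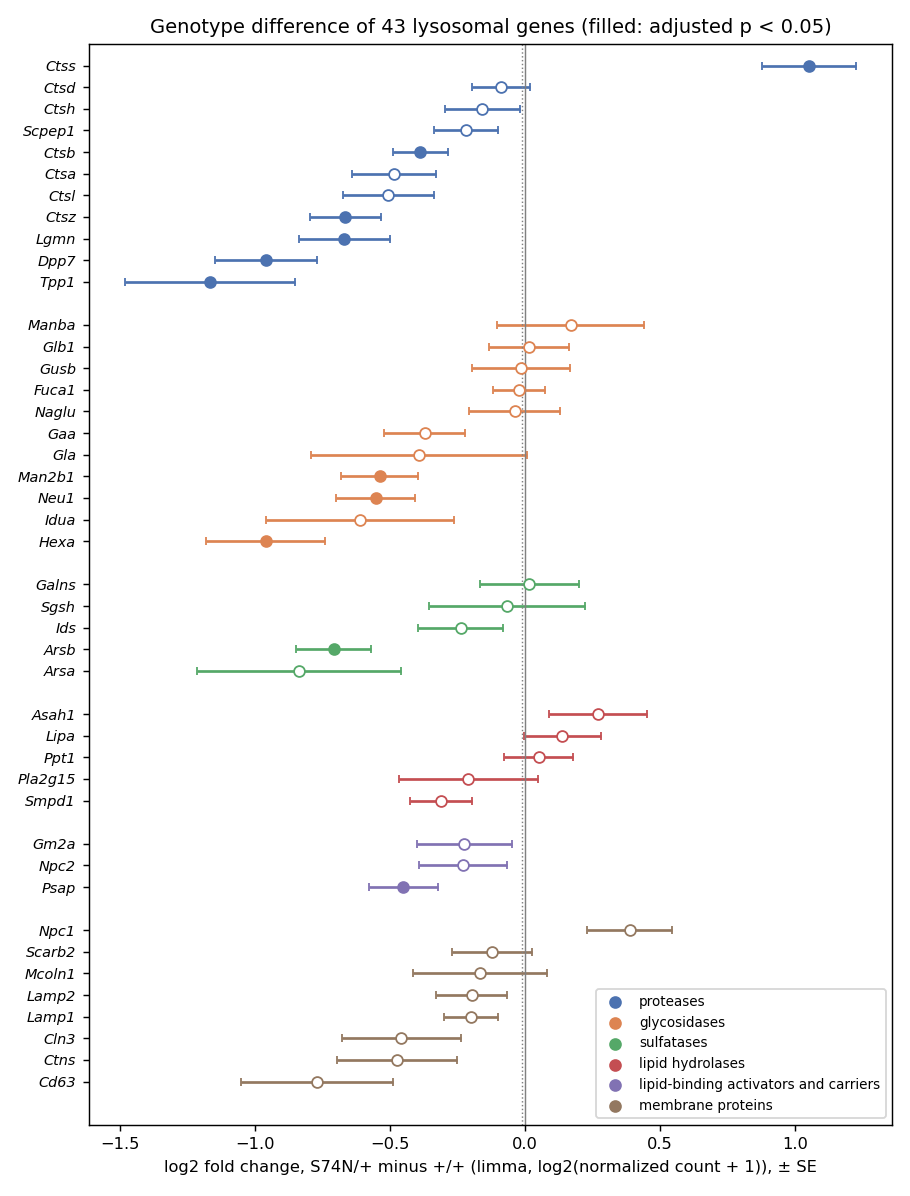
Log2 fold change (Rragc S74N/+ minus Rragc +/+) of each of the 43 genes on the log2(normalized count + 1) scale, with its SE, grouped by class; filled points passed an adjusted p of 0.05 in limma, and the dotted line is the median of all tested genes. The 5 filled proteases on the left range from -1.17 (Tpp1) to -0.39 (Ctsb), Ctss lies alone at 1.05, and no lipid hydrolase or membrane protein is filled. Over all tested genes 2.58% were called lower and 3.45% higher.

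All 5 Rragc S74N/+ kidneys were below all 5 Rragc +/+ kidneys for 10 genes, and all 5 were above for 1, Ctss. Over all tested genes, groups separated in this way for 4.01% in the lower and 4.15% in the higher direction. The 10 were Ctsz, Lgmn, Ctsb, Tpp1, Neu1, Man2b1, Arsb, Smpd1, Psap and Cd63, so that Smpd1 and Cd63 separated without passing the test, and Dpp7 and Hexa passed the test with groups that overlapped at 1 kidney each. For 8 of the 43 genes no Rragc S74N/+ kidney lay below the whole Rragc +/+ range. Taken kidney by kidney, the share of the 43 genes below every Rragc +/+ kidney was 51.2%, 53.5%, 51.2%, 44.2% and 60.5% in Rragc S74N/+ replicates 1 to 5, beside 31.9%, 20.6%, 18.4%, 23.3% and 24.6% of all tested genes in the same kidneys.

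**Figure D2:**
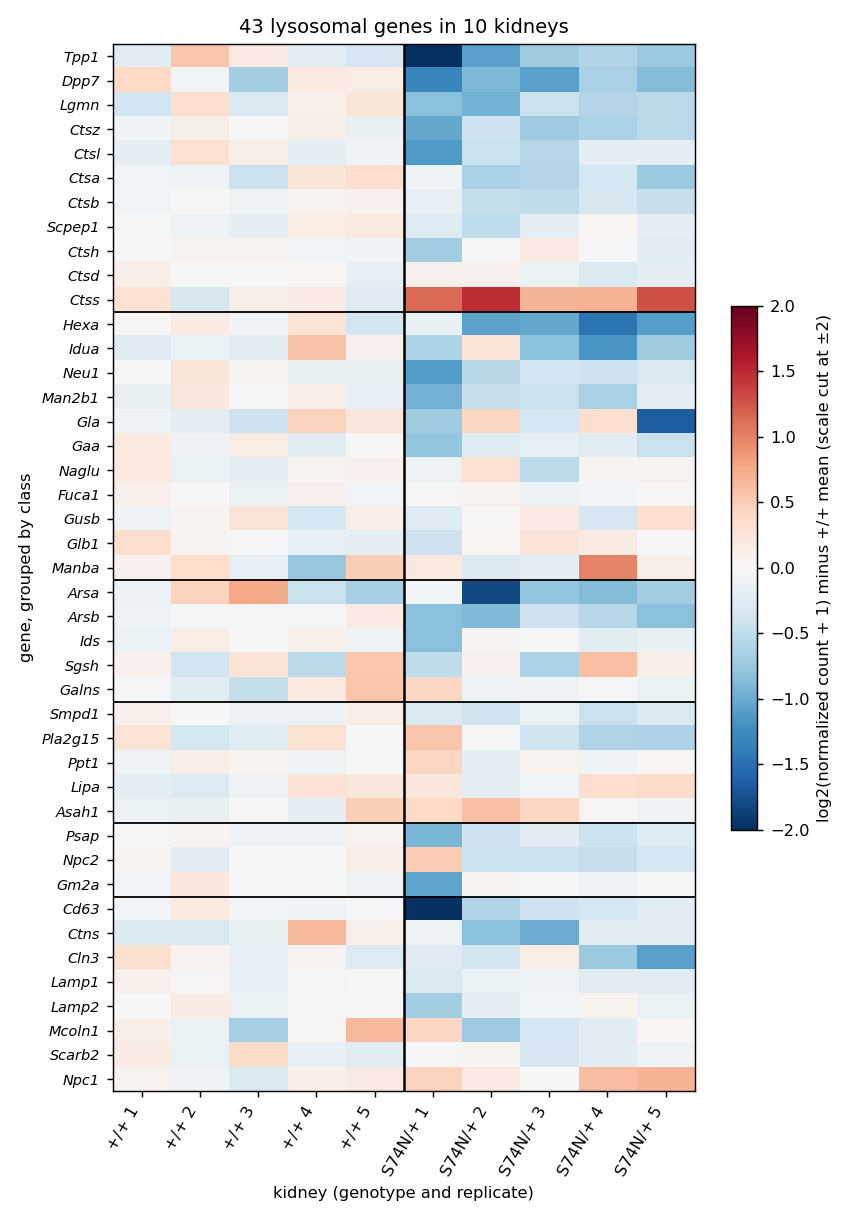
Each row is 1 of the 43 genes and each column 1 kidney; colour gives log2(normalized count + 1) minus the mean of the 5 Rragc +/+ kidneys, cut at 2 in either direction. Blue prevails in the 5 Rragc S74N/+ columns, the row of Ctss is red in all 5, and Rragc S74N/+ replicate 1 has the darkest cells, in Tpp1 and Cd63.

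Promoter sequence was read because many of these genes moved in 1 direction. Of the 43 genes, 38 had an entry in the RefSeq promoter table of GRCm38.p6 (250 bases before to 50 after the gene start, matched by symbol; the counts were made on GRCm39), and Asah1, Npc1, Ctsh, Galns and Ctsb had none. The E-box CACGTG, which reads the same on both strands, was present in 14 of 38 (36.8%), beside 11.7% of the 9866 tested genes with an entry. Its longer form TCACGTGA, also a palindrome and always containing CACGTG, was present in 6 of 38 (15.8%), beside 2.21% of tested genes. The 6 were Ctsa, Ctsd, Dpp7, Gla, Mcoln1 and Cln3. The windows shown are of 58 or 60 bases around the motif, 5′ to 3′ in the sense of the gene and with each CACGTG or TCACGTGA in capitals. Dpp7 and Lgmn are the only genes that both fell and hold the motif, and Ctsa and Ctsd hold the longer form without having passed the test.
Dpp7: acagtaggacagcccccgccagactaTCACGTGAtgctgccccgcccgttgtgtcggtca
Lgmn: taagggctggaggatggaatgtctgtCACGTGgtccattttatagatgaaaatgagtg
Ctsa: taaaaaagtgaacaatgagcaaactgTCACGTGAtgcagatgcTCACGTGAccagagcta
Ctsd: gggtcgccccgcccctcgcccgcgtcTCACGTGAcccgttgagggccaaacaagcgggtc
In GRCm38.p6 the Dpp7 window is chr2:25356373-25356432, minus strand, that of Lgmn is chr12:102439110-102439167, minus strand, that of Ctsa is chr2:164833734-164833793, plus strand and that of Ctsd is chr7:142387893-142387952, minus strand. The first base of the motif lies 74 bases before the annotated start in Dpp7, 49 in Lgmn and 99 in Ctsd. The Ctsa window holds TCACGTGA at 2 places, the first of them 13 bases before the start of that entry. Ctsa and Lgmn have 2 entries each, for 2 annotated starts. Of the genes called lower, 2 of the 9 with an entry held CACGTG, as did 12 of the 28 that were not called. The median log2 fold change was -0.38 in the 14 genes with CACGTG and -0.23 in the 24 without it. A match is only a run of letters in this window and says nothing of whether a factor was bound.

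The proteases held the most called genes, 5 lower and 1 higher of 11, with a median log2 fold change of -0.48. These are 45.5% lower and 9.09% higher, beside 2.58% and 3.45% over all tested genes. Tpp1, tripeptidyl peptidase 1, which trims tripeptides from protein ends, had the largest fall. It stood at 449.7, 763, 588, 457 and 409 normalized counts in Rragc +/+ replicates 1 to 5. In Rragc S74N/+ replicates 1 to 5 it was 79.3, 243, 317, 343 and 309. The groups did not overlap, and Rragc S74N/+ replicate 1 was far below the other 4. Its mean went from 533 ± 145 to 258 ± 107 (SD, n = 5 each; log2 fold change -1.17 ± 0.31 (SE), limma adjusted p = 0.0392). Without that kidney the log2 fold change was -0.79 ± 0.16 (SE) and its adjusted p 0.00489, so the size but not the call rested on it.

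Dpp7, which removes dipeptides from protein ends, fell as well. Its normalized counts were 277, 202, 132, 241 and 234 in the Rragc +/+ kidneys. They were 84.9, 112, 99.0, 134 and 115 in the Rragc S74N/+ kidneys. Only Rragc +/+ replicate 3, the lowest control, lay below any mutant kidney (replicate 4). The mean was 217 ± 54.9 normalized counts in Rragc +/+ and 109 ± 18.5 in Rragc S74N/+ kidneys (SD, n = 5 each; log2 fold change -0.96 ± 0.19 (SE), limma adjusted p = 0.0089). Lgmn, the asparaginyl endopeptidase that also matures other cathepsins, measured 116, 192, 123, 163 and 179 in Rragc +/+ and 84.9, 78.5, 111, 101 and 104 in Rragc S74N/+ kidneys. The groups were separate, though only by the gap between 111 and 116, and the log2 fold change was -0.67 ± 0.17 (SE, limma adjusted p = 0.0305).

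Among the cysteine cathepsins, Ctsz and Ctsb fell and Ctss rose. Ctsz, a carboxypeptidase, had 254, 293, 269.7, 294 and 243 normalized counts in Rragc +/+ kidneys. Its counts in Rragc S74N/+ kidneys were 132, 203, 163, 174 and 186. The lowest control was thus 243 and the highest mutant 203 (log2 fold change -0.67 ± 0.13 (SE), limma adjusted p = 0.00929). Ctsb, a broadly expressed endopeptidase, measured 969, 1012, 936, 1060.2 and 1069 in Rragc +/+ kidneys. In Rragc S74N/+ kidneys it measured 896, 726, 706, 805 and 732. Here replicate 1, low for many of the other genes, was the highest of the mutant kidneys, and the fall was the smallest of those called (log2 fold change -0.39 ± 0.10 (SE), limma adjusted p = 0.0354).

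Ctss, the cathepsin that antigen-presenting cells use to cut the invariant chain of MHC class II, was the only one of the 43 genes called higher. Rragc +/+ kidneys held 218, 141, 193, 198 and 148 normalized counts. Rragc S74N/+ kidneys held 392, 497, 284, 287 and 428. Every mutant kidney was above every control, and the mean rose from 179.8 ± 33.3 to 378 ± 92.2 (SD, n = 5 each; log2 fold change 1.05 ± 0.17 (SE), limma adjusted p = 0.00316). Of the 14 macrophage markers measured, 5 were called higher (C1qb, Lyz2, Aif1, Cx3cr1 and Mpeg1), 35.7% beside 3.45% of all tested genes. Positive values were seen in 12 of 14, and C1qc (-0.48, limma adjusted p = 0.309) and Ms4a7 (-0.77, adjusted p = 0.0947) were negative. Their summed level was between 762 and 998 normalized counts in Rragc +/+ and between 1199.8 and 1659.9 in Rragc S74N/+ kidneys. Csf1r was the largest part of it (means of 302 and 403) and was not called (adjusted p = 0.0735). The marker of lowest level in controls was Itgam (6.22 ± 3.09 and 14.3 ± 9.57 normalized counts), with none at a mean of 0. Ctss per summed macrophage count was 0.149 to 0.237 in Rragc +/+ and 0.228 to 0.345 in Rragc S74N/+ kidneys, so this ratio overlapped where the Ctss level did not. The part of macrophages in the rise of Ctss was not tested.

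**Figure D3:**
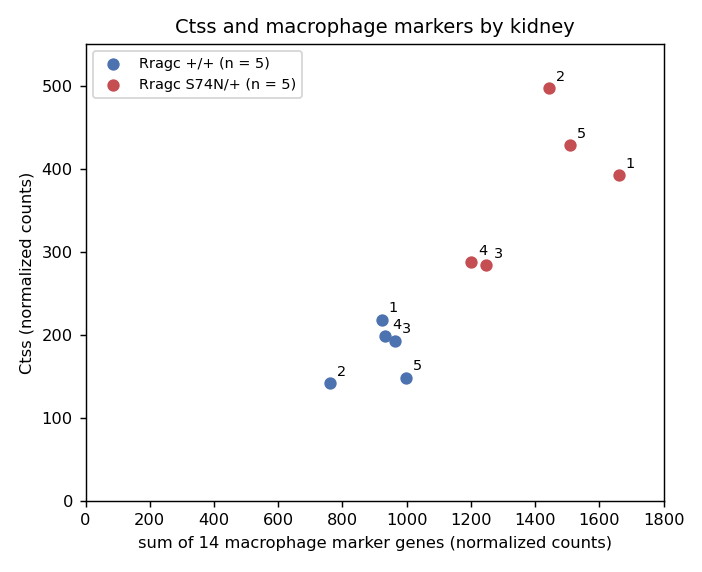
Ctss (normalized counts, vertical) against the sum of 14 macrophage marker genes (normalized counts, horizontal) in each kidney, with replicate numbers. The 5 Rragc +/+ kidneys lie at 141 to 218 for Ctss and 762 to 998 for the markers, and the 5 Rragc S74N/+ kidneys lie above them on both axes, at 284 to 497 and 1199.8 to 1659.9.

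The other 5 proteases had negative values that did not pass the test. Ctsa, the serine carboxypeptidase that also protects Neu1 and Glb1, was 461 ± 93.2 normalized counts in Rragc +/+ and 328 ± 60.2 in Rragc S74N/+ kidneys (SD, n = 5 each; log2 fold change -0.48 ± 0.16 (SE), limma adjusted p = 0.0741), and passed without Rragc S74N/+ replicate 1 (adjusted p = 0.017). The endopeptidase Ctsl had a log2 fold change of -0.51 (adjusted p = 0.081). Ctsd, the aspartyl protease and the most abundant of the class, was 1747 ± 129.8 normalized counts in Rragc +/+ and 1647 ± 191 in Rragc S74N/+ kidneys (SD, n = 5 each; log2 fold change -0.09 ± 0.11 (SE), limma adjusted p = 0.643). Scpep1 and the aminopeptidase Ctsh had log2 fold changes of -0.22 and -0.16.

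Of 11 glycosidases, 3 fell (27.3%, beside 2.58% of all tested genes), and the class median was -0.37. That median was -0.039 with a minimum mean of 50, which removes Idua and Gla, and -0.103 without Rragc S74N/+ replicate 5. Hexa encodes the alpha subunit of beta-hexosaminidase A, which removes the terminal sugar of GM2 ganglioside. It measured 98.4, 108, 92.2, 117 and 74.6 normalized counts in Rragc +/+ kidneys. In Rragc S74N/+ kidneys it measured 87.7, 45.6, 47.0, 34.6 and 44.7. Replicate 1 was in the control range and the other 4 were below every control. The log2 fold change was -0.96 ± 0.22 (SE, limma adjusted p = 0.0199) with all kidneys and -1.17 ± 0.18 without replicate 1.

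Neu1, the sialidase that removes sialic acid from glycoproteins, measured 1148, 1361, 1188, 1027 and 1029.7 in Rragc +/+ kidneys. It measured 528, 777, 879, 861 and 927 in Rragc S74N/+ kidneys. The groups were separate, with replicate 1 the lowest, and the log2 fold change was -0.55 ± 0.15 (SE, limma adjusted p = 0.0354). Man2b1, the alpha-mannosidase of glycoprotein breakdown, was at 318, 411, 343, 384 and 313 in Rragc +/+ kidneys. Rragc S74N/+ kidneys had 183, 256, 258, 223 and 308. The gap between the groups was small, from 308 to 313, and the log2 fold change was -0.54 ± 0.14 (SE, limma adjusted p = 0.0364).

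The other 8 glycosidases did not pass the test, and their log2 fold changes ran from -0.61 (Idua) to 0.17 (Manba). Those nearest to 0 were the fucosidase Fuca1, the beta-galactosidase Glb1, the glucuronidase Gusb, Naglu of heparan sulfate breakdown and the beta-mannosidase Manba. Fuca1, the most abundant glycosidase, was 1449 ± 100.4 normalized counts in Rragc +/+ and 1425 ± 68.5 in Rragc S74N/+ kidneys (SD, n = 5 each; log2 fold change -0.02 ± 0.10 (SE), limma adjusted p = 0.91). Gaa, which degrades glycogen, had -0.37 (adjusted p = 0.137). Idua and Gla, which cut glycosaminoglycans and globotriaosylceramide, rested on few reads, with group means of 10.1 to 15.4 and 12.2 to 14.7, and did not pass (adjusted p = 0.283 and 0.572).

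Of the 5 sulfatases, which take sulfate groups off glycosaminoglycans and sulfatide, 1 fell (20%, beside 2.58% of all tested genes). The median was -0.24, or -0.089 without Rragc S74N/+ replicate 1. Arsb acts on dermatan and chondroitin sulfate. Its normalized counts were 143, 151, 149, 151 and 172 in Rragc +/+ kidneys. They were 84.9, 82.4, 114, 103 and 85.5 in Rragc S74N/+ kidneys. The control values were tight apart from replicate 5, every mutant kidney lay below them, and the mean went from 153 ± 11.04 to 93.9 ± 13.9 (SD, n = 5 each; log2 fold change -0.71 ± 0.14 (SE), limma adjusted p = 0.00879). Arsa, which acts on sulfatide, was at 17.9, 27.0, 33.6, 13.973 and 11.9 in Rragc +/+ kidneys. Rragc S74N/+ kidneys had 18.7, 4.85, 10.998, 10.2 and 11.7. These are few reads, the groups overlapped at replicate 1 of the mutant and replicates 1, 4 and 5 of the controls, and the difference did not pass (log2 fold change -0.84 ± 0.38 (SE), limma adjusted p = 0.178). Ids, the iduronate sulfatase and the most abundant of the class, was 239 ± 20.7 normalized counts in Rragc +/+ and 206 ± 44.2 in Rragc S74N/+ kidneys (SD, n = 5 each; log2 fold change -0.24 ± 0.16 (SE), limma adjusted p = 0.358). Sgsh and Galns had log2 fold changes of -0.07 and 0.02.

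The 5 lipid hydrolases showed no call in either direction (edgeR and DESeq2 also called 0). Over all tested genes 2.58% were called lower and 3.45% higher, so 0 calls among 5 genes is near that share. An unadjusted limma p under 0.05 was found in 1 of the 5, beside 3360 of the 13236 tested genes. The median log2 fold change was 0.05, or -0.043 without Rragc S74N/+ replicate 1. Smpd1, the acid sphingomyelinase, measured 275, 255, 235, 237 and 285 in Rragc +/+ kidneys. It measured 209.8, 195, 233, 188 and 209 in Rragc S74N/+ kidneys. Every mutant kidney was below every control, by as little as 233 against 235, but the difference did not pass (log2 fold change -0.31 ± 0.12 (SE), limma adjusted p = 0.111). Asah1, the acid ceramidase that acts on the ceramide made by Smpd1, had 68.2, 67.6, 74.9, 66.4 and 105 in Rragc +/+ kidneys. Its values in Rragc S74N/+ kidneys were 99.8, 114, 101, 76.4 and 70.9. The groups overlapped, since control replicate 5 lay above 4 of the mutant kidneys, and the difference did not pass (log2 fold change 0.27 ± 0.18 (SE), limma adjusted p = 0.37). Lipa, the acid lipase of cholesteryl esters and triglycerides and the most abundant of the class, was 624 ± 106 normalized counts in Rragc +/+ and 687 ± 114 in Rragc S74N/+ kidneys (SD, n = 5 each; log2 fold change 0.14 ± 0.14 (SE), limma adjusted p = 0.575). The phospholipase Pla2g15 and the thioesterase Ppt1 had log2 fold changes of -0.21 and 0.05.

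All 3 lipid-binding proteins had negative values, and 1 fell (33.3%, beside 2.58% of all tested genes). Psap, cut in the lysosome into the saposins that lift sphingolipids toward their enzymes, was the most abundant of all 43 genes in Rragc +/+ kidneys. It held 5767, 5933, 5372, 5430.1 and 6005 normalized counts there. In Rragc S74N/+ kidneys it held 3021, 4258, 4871, 4229 and 4730.5. The groups were separate and replicate 1 was lowest, with a mean of 5701 ± 288 against 4222 ± 728 (SD, n = 5 each; log2 fold change -0.45 ± 0.13 (SE), limma adjusted p = 0.0485). The edgeR test on recovered reads did not call it. Npc2, which carries cholesterol inside the lysosome, was 1436, 1199, 1378, 1382 and 1534 in Rragc +/+ kidneys. Rragc S74N/+ kidneys had 1966, 1030.3, 1031, 1007 and 1078. Replicate 1 was the highest of all 10 kidneys and the other 4 were below every control. With all kidneys the difference did not pass (log2 fold change -0.23 ± 0.16 (SE), limma adjusted p = 0.395). Without replicate 1 Npc2 fell by 0.41 ± 0.10 on the log2 scale (limma adjusted p = 0.0133). Gm2a, the activator that presents GM2 ganglioside to beta-hexosaminidase A, was 560.5 in Rragc S74N/+ replicate 1 and 1088 to 1209 in the other 4, where Rragc +/+ kidneys had 1079 to 1363 (log2 fold change -0.23 ± 0.18 (SE), limma adjusted p = 0.444). Without replicate 1 its log2 fold change was -0.02 ± 0.10 (SE), so the negative value rested on that kidney.

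**Figure D4:**
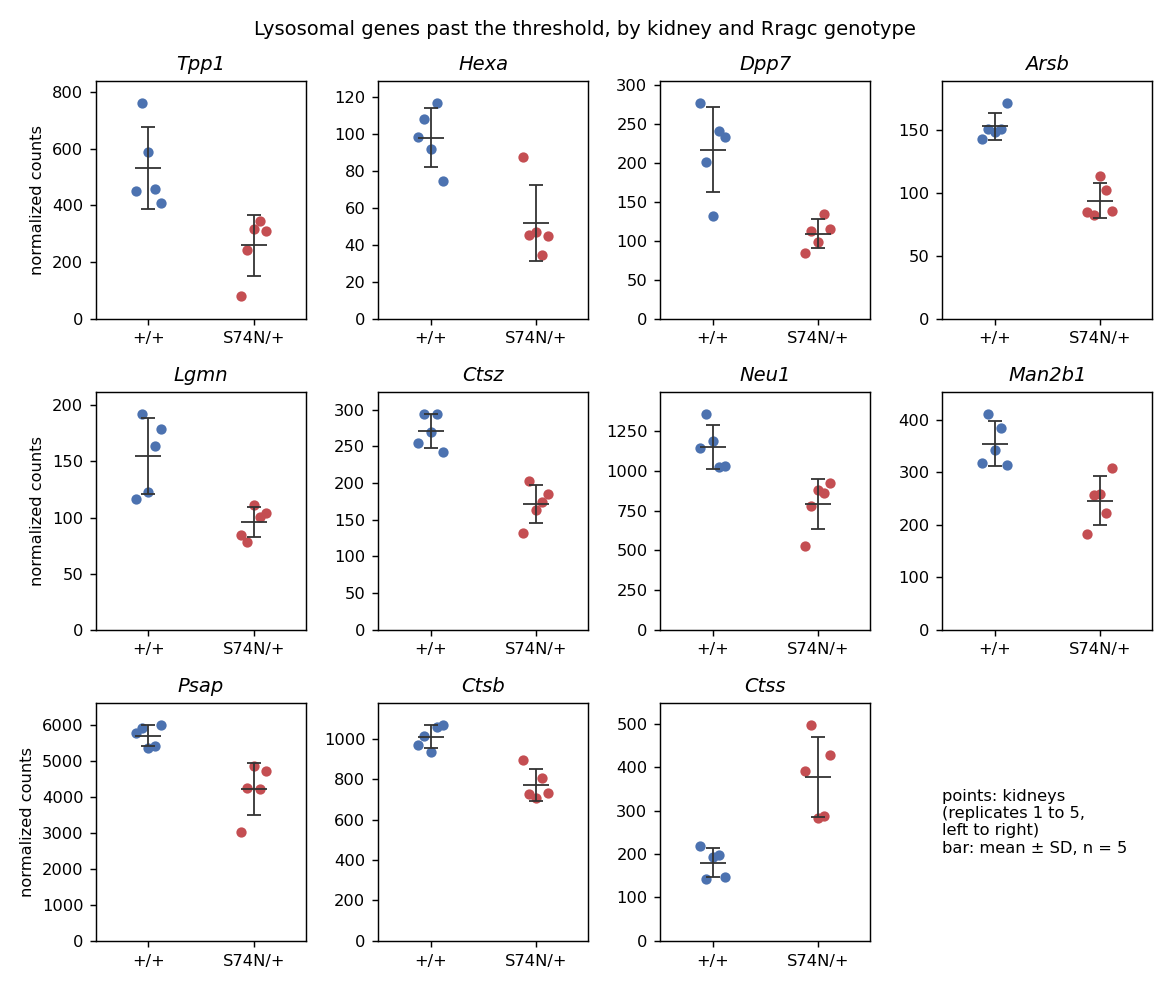
Normalized counts of the 11 genes past the threshold in each kidney, Rragc +/+ in blue and Rragc S74N/+ in red, ordered by log2 fold change, with bars for the mean and SD of 5 kidneys and vertical axes from 0. The groups overlap in Hexa and Dpp7 only, and Ctss alone is higher in Rragc S74N/+ kidneys.

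None of the 8 membrane proteins passed the test (edgeR and DESeq2 also called 0), although 7 had negative values and the median was -0.20. With 2.58% called lower and 3.45% higher over all tested genes, 0 calls among 8 genes is near that share. An unadjusted limma p under 0.05 was found in 3 of the 8, beside 3360 of the 13236 tested genes. Cd63, a tetraspanin of late endosomes and lysosomes, measured 4004, 4777, 4024, 3965 and 4074 in Rragc +/+ kidneys. It measured 873, 2742, 3116, 3265 and 3534 in Rragc S74N/+ kidneys. Every mutant kidney was below every control, and replicate 1 was far below the other 4. With all kidneys the difference did not pass (log2 fold change -0.77 ± 0.28 (SE), limma adjusted p = 0.107). Without replicate 1 Cd63 fell by 0.40 ± 0.10 on the log2 scale (limma adjusted p = 0.0211).

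Npc1, the membrane transporter that takes cholesterol from Npc2, was the only one with a positive value. It was 141, 126, 109, 147 and 152 in Rragc +/+ kidneys. In Rragc S74N/+ kidneys it was 185, 152, 133, 206 and 218. The groups overlapped at mutant replicates 2 and 3, and the difference did not pass (log2 fold change 0.39 ± 0.16 (SE), limma adjusted p = 0.14). Lamp1, the most abundant of the class and a coat glycoprotein of the membrane, was 4996 ± 341 normalized counts in Rragc +/+ and 4348 ± 239 in Rragc S74N/+ kidneys (SD, n = 5 each; log2 fold change -0.20 ± 0.10 (SE), limma adjusted p = 0.224). The related Lamp2 had a log2 fold change of -0.20. The cystine exporter Ctns and Cln3 had -0.48 (adjusted p = 0.194) and -0.46 (adjusted p = 0.208). Mcoln1, a calcium channel, and Scarb2, the receptor that brings glucocerebrosidase to lysosomes, had -0.17 and -0.12.

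Summed levels were lower in Rragc S74N/+ kidneys in 5 of the 6 classes. The 43 genes together held 32536 ± 1181 normalized counts in Rragc +/+ and 26593 ± 2356 in Rragc S74N/+ kidneys (SD, n = 5 each), and took 0.639% to 0.681% of all counts in the former and 0.489% to 0.602% in the latter. Beside a ratio of group means of 0.946 for the sum of all tested genes, the ratio was 0.839 for proteases, 0.844 for glycosidases, 0.827 for sulfatases, 0.784 for lipid-binding proteins and 0.794 for membrane proteins. In each of these 5 classes all mutant kidneys were below all controls. The protease sum was between 7175 and 7745 normalized counts in Rragc +/+ and between 5889.9 and 6462 in Rragc S74N/+ kidneys, although it contains the gene that rose. The sum of lipid hydrolases overlapped, with between 1167 and 1419.7 normalized counts in Rragc +/+ and between 1123 and 1457 in Rragc S74N/+ kidneys and a ratio of 1.03. Set against each other in the same kidney, proteases per lipid hydrolase count were 6.26, 6.64, 5.90, 5.65 and 5.19 in Rragc +/+ and 4.04, 5.74, 5.12, 4.88 and 4.47 in Rragc S74N/+ kidneys. The ratios of the 2 genotypes overlapped, and their mean was 5.93 ± 0.555 against 4.85 ± 0.646 (SD, n = 5 each). Without Rragc S74N/+ replicate 1 the mean of the other 4 was 5.05 ± 0.533 (SD). The ratio was picked after the sums had been seen and is given as a description, with no test. Sums are led by abundant genes: Psap, Lamp1 and Cd63 took 35.2% to 46.4% of the total, and the other 40 genes together were at 16932 to 18254 and 14546 to 15729, also without overlap.

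**Figure D5:**
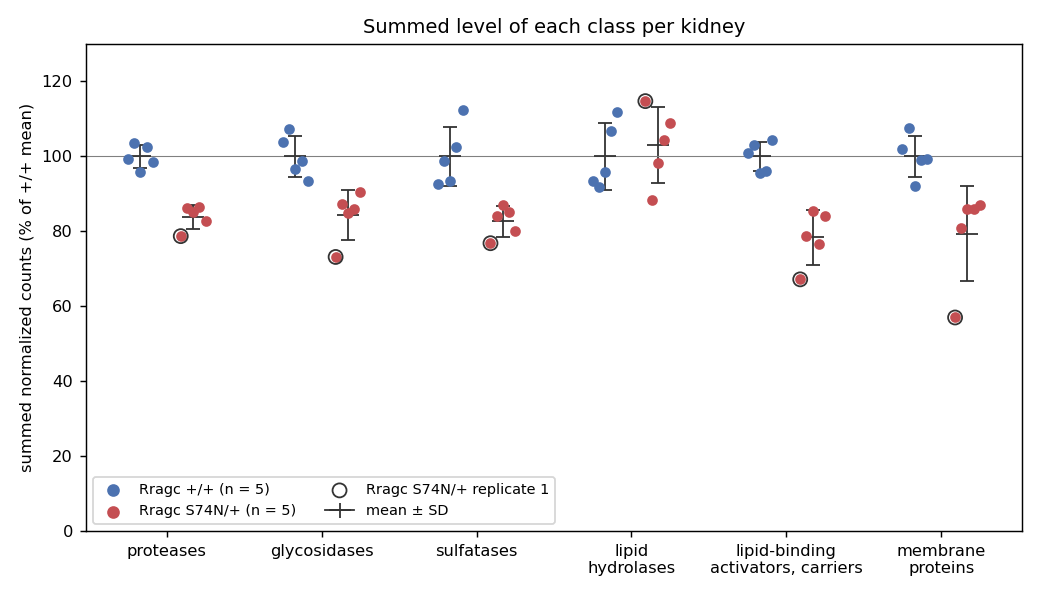
Summed normalized counts of each class per kidney, as percent of the Rragc +/+ mean (vertical axis from 0), with the mean and SD of 5 kidneys; a ring marks Rragc S74N/+ replicate 1. The red points lie below the blue ones in every class but the lipid hydrolases, and the ringed kidney is the lowest red point in those 5 classes and the highest in the lipid hydrolases.

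Some of these proteins work in pairs or complexes, and their log2 fold changes are set side by side here. The pairs are textbook partners, picked after the values had been seen. Neu1 fell, its protective partner Ctsa had -0.48 and Glb1, which joins that complex, had 0.01. Hexa fell, while the activator Gm2a had -0.23 with all kidneys and -0.02 without Rragc S74N/+ replicate 1. In the export of cholesterol Npc2 and Npc1 had opposite signs, -0.23 and 0.39. The differences within these sets were not tested.

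Rragc S74N/+ replicate 1 differed from the other mutant kidneys in both directions. It was the lowest of all 10 kidneys for 15 of the 43 genes, where any other kidney was lowest for at most 6, and the highest for 3. Over all tested genes this kidney also stood low, with 31.9% below every Rragc +/+ kidney, beside 18.4% to 24.6% in the other 4 Rragc S74N/+ kidneys. Its total over the 43 genes was 22466, beside 26914 to 28114 in the other 4, and its macrophage marker sum was the highest at 1659.9. Without it 14 of 43 genes were called: all 11 named above kept their direction and call, and Ctsa, Npc2 and Cd63 were added as lower. Calls over all tested genes went from 798 (341 lower, 457 higher) with all kidneys to 900 (424 lower, 476 higher) without this kidney. Among genes that passed neither with nor without it, the log2 fold change went toward 0 or past it without this kidney in Ctsl from -0.51 to -0.35, Ctsh from -0.16 to -0.02, Ids from -0.24 to -0.09, Lamp2 from -0.20 to -0.07 and Sgsh from -0.07 to 0.05. It went away from 0 in Arsa from -0.84 to -1.03, Pla2g15 from -0.21 to -0.40 and Mcoln1 from -0.17 to -0.31.

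The stability of the calls varied between genes. Ctss, Dpp7, Ctsz and Arsb passed in each of the 10 fits that left out 1 kidney, Hexa in 6, Lgmn, Tpp1, Neu1 and Man2b1 in 4 and Ctsb and Psap in 2, and no gene called with all kidneys changed sign in any. The number called lower was 3 without Rragc +/+ replicate 2 or 4, 4 without Rragc +/+ replicate 1 or Rragc S74N/+ replicate 2, 5 without Rragc S74N/+ replicate 4 or 5, and 13 without Rragc S74N/+ replicate 1. Over all 13236 tested genes 341 were called lower with all kidneys. In the same fits, in the order named, that number was 125, 147, 139, 285, 235, 169 and 424. When kidneys were scaled to equal totals in place of the size factors of the authors, 6 genes were lower and 1 higher, while the share of calls over all genes that were higher went from 57.3% to 76.1%. The sample titles carry numbers in 2 ranges, and the labels do not say what they mean. Within the range under 200 (3 kidneys of each genotype) and over 200 (2 of each), all 11 called genes kept their direction. The difference was as large in both for Ctss (1.07 and 1.03) and Dpp7 (-0.98 and -0.93) but not for Tpp1 (-1.67 and -0.41) or Neu1 (-0.79 and -0.20), whose lowest kidney is in the range under 200. The other 7 had values of -0.33 to -0.78 in the former and -0.35 to -1.23 in the latter.

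Other genes of the lysosomal pathway were counted in the same fit. Of 33 further genes of lysosomal proteins, mostly hydrolases, 1 fell and 2 rose. The fall was in Creg1 (a secreted and lysosomal glycoprotein, not listed here for an enzyme activity, log2 fold change -0.60, limma adjusted p = 0.00594). The rises were in Plbd1 (a phospholipase B-like protein, log2 fold change 1.45, limma adjusted p = 0.00456) and Hyal1 (a hyaluronidase, log2 fold change 1.05, limma adjusted p = 0.0474). Plbd1 and Hyal1 both started from low means, 27.5 and 17.4 normalized counts. These are 3.03% lower and 6.06% higher of the 33, beside 2.58% and 3.45% over all tested genes. The median of those 33 was -0.24, and edgeR called 3 and DESeq2 5 of them. An unadjusted limma p under 0.05 was found in 18 of the 33, beside 3360 of the 13236 tested genes. Among 20 genes of enzyme delivery, Vps26a (a retromer subunit, log2 fold change -0.75, limma adjusted p = 0.0203) and Gnptg (a subunit of the enzyme that makes the mannose phosphate tag, log2 fold change -0.84, limma adjusted p = 0.0269) fell (10% of the list, beside 2.58% of all tested genes), with a median of -0.09. Of 16 ubiquitous V-ATPase subunits 2 fell (12.5%, beside 2.58% of all tested genes), Atp6v1f and Atp6v1g1. Their log2 fold changes were -0.39 (limma adjusted p = 0.0317) and -0.61 (limma adjusted p = 0.0423). Negative values were seen in 15 of 16 subunits and the median was -0.33. An unadjusted limma p under 0.05 was found in 10 of the 16, and edgeR called 2 and DESeq2 3. Of the 10 measured MiT-TFE factors and Rag-folliculin regulators, 4 had an unadjusted limma p under 0.05, beside 3360 of the 13236 tested genes. Of the 10, 0 were called by limma, 0 by edgeR and 2 by DESeq2. The latter were Fnip1 (DESeq2 log2 fold change -0.38 and adjusted p = 0.0497) and Rraga (DESeq2 log2 fold change -0.89 and adjusted p = 0.0409). The median limma log2 fold change of the 10 was -0.37. Summed levels had a ratio of group means of 0.827 for the 33 genes, 0.794 for the V-ATPase subunits and 0.832 for these 10. In each of these lists all mutant kidneys were below all controls. The delivery genes had a ratio of 1.07 and their sums overlapped. For comparison, the ratio was 0.817 for the 43 genes and 0.946 for all tested genes.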

How the data were processed

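RNA from 10 whole kidneys was made into 3′ mRNA libraries (QuantSeq, 300 ng of RNA) and sequenced once each. Per the methods and the submitters' processing notes, the authors checked reads with FastQC 0.11.7, aligned them to GRCm39 with TopHat2 2.0.10, Bowtie 1.0.0 and SAMtools 0.1.19, and counted sense-strand reads per gene with HTSeq 0.6.1 on a GENCODE annotation. The deposited signal values are normalized counts, that is read counts divided by the size factor of each sample, for 13299 genes. The lowest mean over the 10 kidneys was 4.37, so low genes had been removed by a rule not given in the sources used here. All columns were matched to samples by title. Because values are whole multiples of 1 step, reads were recovered from all 10 columns (100% of values whole within 0.01 of a read).

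Genes with a normalized count of at least 5 in at least 5 kidneys were tested (13236 kept, 63 removed). Log2(normalized count + 1) entered limma 3.58.1 (R 4.3.3) in a model of genotype alone, with eBayes moderation along a variance trend. Two-sided p-values were adjusted by Benjamini-Hochberg over every tested gene and called at 0.05. Fold changes on this scale understate those of low genes. The test was checked on simulated data. The labels give genotype but no replicate numbers, so kidneys were numbered in order of deposit and p-values measure the spread between these kidneys. Alternatives were pseudocounts of 0.5 and 5, no filter, a minimum mean of 50, scaling to equal totals or equal 75th percentiles, eBayes without the trend or robust, edgeR 4.0.16 (quasi-likelihood) and DESeq2 1.42.0 on recovered reads, the range of the title number as a term, and leaving out each kidney.

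The 43 genes, the pathway lists and the marker lists were chosen with earlier results of these data known. Values in every kidney are given for each gene past the threshold and, in a class with fewer than 2 of these, for those of smallest p until 2 are shown. Group means are given for the most abundant gene of each class, and up to 3 called genes for each pathway list. Genes singled out where kidneys or settings differed were picked after values were seen. Promoter sequence is from RefSeq.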

Additional observations from a re-analysis of the deposited data

Results flagged for a closer look

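In groups of 5 kidneys, 1 kidney was marked when its gap to the nearest other, divided by the range of the group, exceeded 0.71, the 95% critical value of Dixon's test. Of 100 groups searched (the 43 genes, the 6 class sums and the sum of all 43, in each genotype), 12 were marked. For independent groups chance marks about 1 in 20, or 5. These groups are not independent, since the sums hold the same genes, so 5 is only a rough guide.

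Rragc S74N/+ replicate 1 accounted for 6 of the 12 marks. In that kidney Npc2 was 1966 normalized counts, where the other 4 Rragc S74N/+ kidneys held 1007 to 1078, and Galns was 207 beside 141 to 151. Hexa was 87.7 in it and 34.6 to 47.0 in the others, and Gm2a was 560.5 beside 1088 to 1209. The sum of the membrane proteins was 6440.1 in this kidney and 9149 to 9821 in the others, and the sum of all 43 genes was 22466 beside 26914 to 28114. The direction differed between genes, with Npc2, Galns and Hexa high and Gm2a and both sums low.

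The other marked values were spread over kidneys and genotypes. In Rragc S74N/+ kidneys, Idua was 18.4 in replicate 2 (others 6.11 to 9.33) and Manba was 93.7 in replicate 4 (others 37.8 to 53.2). In Rragc +/+ kidneys, replicate 5 was high for Arsb at 172 (others 143 to 151) and for Asah1 at 105 (others 66.4 to 74.9). Replicate 2 was high for Gm2a at 1363 (others 1079 to 1135) and for Cd63 at 4777 (others 3965 to 4074).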

How the results depend on the processing

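The Rragc S74N/+ and Rragc +/+ kidneys came from different mice and the labels name no pairs, so the groups were compared unpaired. Among the 11 called genes, direction held in all 21 alternatives. Calls held in all 21 for Ctss, Dpp7, Ctsz and Arsb, and the other 7 each lost theirs in at least 1. Without the variance trend 3 genes were lower (391 genes called in all, 150 lower and 241 higher), and Ctsb, Lgmn, Tpp1, Neu1, Hexa, Man2b1 and Psap lost their calls. With equal totals 6 were lower (all genes 225 lower, 718 higher), Ctsb, Neu1, Man2b1 and Psap lost theirs, and the median of the 43 genes was -0.15 beside 0.06 over all tested genes. Robust eBayes lost Tpp1 and edgeR lost Psap. DESeq2 called 1354 genes (573 lower, 781 higher) and added Ctsa. The glycosidase median was -0.27 with a pseudocount of 5, -0.039 with a minimum mean of 50 (which removes Idua and Gla), -0.27 with edgeR and -0.28 with DESeq2.

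Leaving out each kidney gave 3 to 13 genes lower and 1 higher in each fit. Over all genes it gave 311 to 902 calls, 125 to 424 lower and 186 to 503 higher. The median of the 43 genes ran from -0.31 to -0.23, of glycosidases from -0.41 to -0.103 (the latter without Rragc S74N/+ replicate 5), of sulfatases from -0.31 to -0.089 (the latter without Rragc S74N/+ replicate 1), of lipid-binding proteins from -0.34 to -0.23 and of lipid hydrolases from -0.043 (without Rragc S74N/+ replicate 1) to 0.114. The cause of these shifts was not tested. Idua, Gla and Arsa rested on few reads (group means of 10.1 to 20.9 normalized counts) and had SEs of 0.35 to 0.40 on the log2 scale.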
